A study of Saccharomyces cerevisiae with 6 samples.

Results

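The cell wall integrity pathway of Saccharomyces cerevisiae was followed through 10 listed genes, WSC1, MID2, ROM2, RHO1, PKC1, BCK1, MKK1, MKK2, SLT2 and RLM1, out of 7127 genes in the count table. The members were chosen by name and matched to systematic identifiers through the RefSeq gene table, in which WSC1 carries the symbol SLG1. All 10 were in the table, and all 10 passed the filter on low counts.

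The pathway lets a walled cell sense strain on its surface. Stress sensors in the plasma membrane recruit an exchange factor that loads the small GTPase Rho1 with GTP. Active Rho1 turns on protein kinase C, which starts a MAP kinase cascade that ends in Slt2, and Slt2 phosphorylates the transcription factor Rlm1, an activator of cell wall genes. Signalling through the cascade is carried mainly by phosphorylation, which RNA does not measure.

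PolyA RNA came from whole cells of 1 haploid MATa strain of the S288c background grown in YPD at 30°C. Both groups carried the same parental alleles. Operator arrays stood at TRP1 (trp1::TetO:TRP1) and LYS4 (lys4::LacO:hphNT1), with the fluorescent repressors LacR-GFP (at HIS3, his3::LacR-GFP:HIS3) and, besides, TetR-mCherry. The strain was ade2, held leu2::Cre-EBD78:LEU2, and carried Shs1 joined to the cassette loxPmCherry:Cln2(3'UTR)-NatNT2-loxP-GFP. Cre-EBD78 is a recombinase that acts once beta-estradiol is present, and it then removes the loxP-flanked stretch from the septin gene SHS1. As written, that stretch holds mCherry, the Cln2 3'UTR and NatNT2, and GFP follows the second loxP. The first group, mCh*, was collected at 0 min (3 libraries) and the second, mCh-, at 180 min after 1 µM beta-estradiol (3 libraries), from 3 independent experiments. The promoter of the recombinase is not given in the sources used here. The labels give the hormone as a treatment of both groups, with only the time after its addition differing. Time in culture, the length of exposure to the hormone and the removal of the loxP-flanked stretch, mCherry included, go together between the groups and cannot be told apart. Libraries held 25987900 to 34032212 counts. The MATa receptor gene STE2 was at 667 ± 34.6 CPM at 0 min (SD, n = 3), while the alpha-factor genes MFALPHA1 and MFALPHA2 had 0 to 17 counts in every library. The other MATalpha genes, STE3 and SAG1, were at 5.05 ± 0.999 and 16.3 ± 1.24 CPM at 0 min (SD, n = 3).

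Levels below are CPM, counts scaled to a common library size with TMM factors, which correct for differences in RNA composition between libraries. A gene was called when edgeR's quasi-likelihood test, two-sided and adjusted by Benjamini-Hochberg over all 6220 tested genes, gave an adjusted p below 0.05. Of the 10 members, 3 were called higher at 180 min (ROM2, PKC1 and BCK1), 2 were called lower (MID2 and SLT2) and 5 were not called. Over all tested genes 57.7% were called, 29.5% higher and 28.2% lower, so the members' share lay near the background. Their median log2 fold change was -0.02, against 0.02 over all tested genes. The 3 libraries of one time lay apart from the 3 of the other in 6 members, 3 higher and 3 lower. Over all tested genes 63.4% did so, 32.7% higher and 30.8% lower. With library sizes only, without TMM factors, the median of all genes moved to 0.27, and 5 members were called higher and 2 lower, beside 48.2% and 15.6% of all tested genes.

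**Figure D1:**
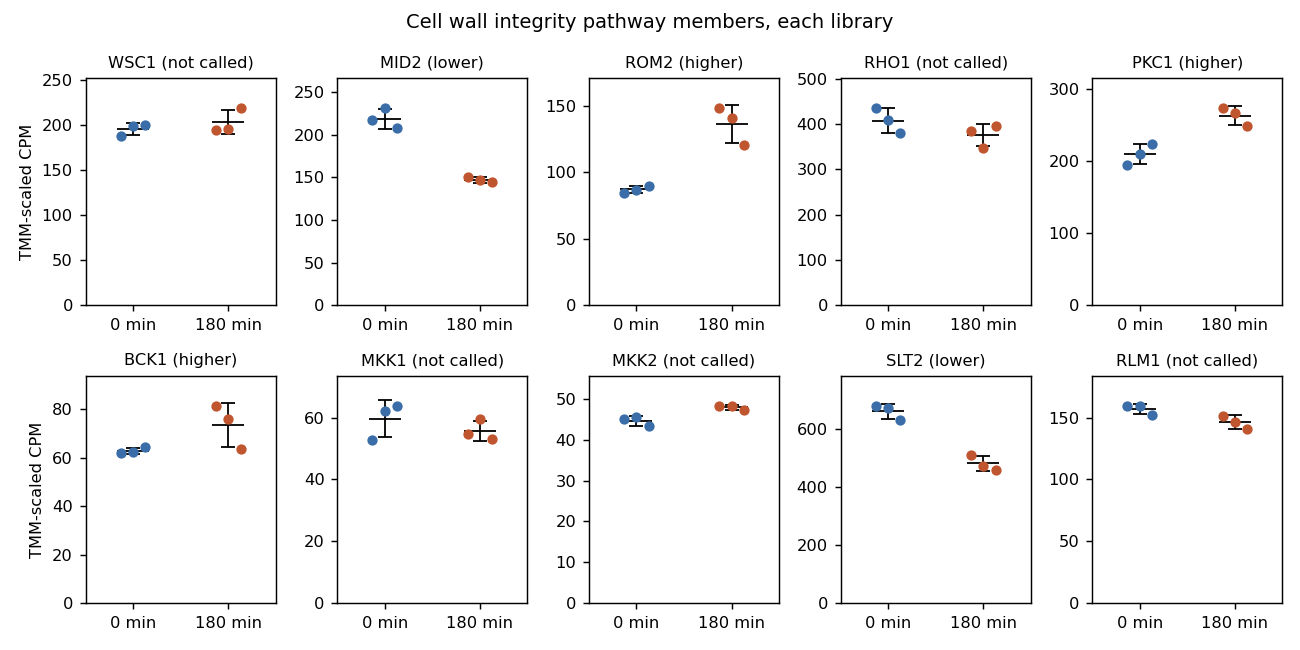
Level of each pathway member (y axis, TMM-scaled CPM, starting at 0) in the 3 libraries at 0 min and the 3 at 180 min; points are libraries, and bars are the mean with the SD. MID2 and SLT2 lay lower and ROM2 and PKC1 higher in every library at 180 min, while BCK1 in 1 library at 180 min lay within the range of the 0 min libraries.

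Of the sensors, which span the plasma membrane and reach into the wall, MID2 fell and WSC1 was not called. MID2 (YLR332W, chromosome XII, 790676 to 791806 in R64) is a sensor known for its role in the response to mating pheromone. It was at 217, 231 and 208 CPM in the 0 min libraries and at 150, 146 and 144 CPM in the 180 min libraries. The groups did not overlap, and the change was a log2 fold change of -0.58 ± 0.08 (SE; adjusted p = 1.20e-05 in edgeR), or 0.671-fold. The gene overlaps JIP3, annotated on the other strand, which held at most 15 counts in any library. WSC1 (YOR008C, chromosome XV, 341278 to 342414), a sensor rich in mannosylated serine and threonine and active in heat and during polarized growth, was at 188, 199 and 200 CPM and then at 195, 196 and 219 CPM. These ranges overlapped, and its fold change of 1.04 had a 95% confidence interval of 0.923 to 1.17. Per kilobase of gene, MID2 went from 1.13 ± 0.07 times the level of WSC1 at 0 min to 0.730 ± 0.06 times at 180 min (SD, n = 3).

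The remaining sensor genes also moved apart. WSC4, a further member of the WSC family, rose from 25.1 ± 2.28 to 51.0 ± 0.497 CPM (SD, n = 3), a log2 fold change of 1.02 (adjusted p = 2.45e-07 in edgeR). WSC3 fell by 0.64 on the log2 scale, and WSC2 (-0.19) was not called, except in the fit without mCh* replicate 3 or mCh- replicate 3 and with a trend on gene length removed. MTL1, the duplicate of MID2, was called higher by a small margin (0.21, adjusted p = 0.0430 in edgeR). That call was lost without mCh* replicate 2 (0.116), mCh* replicate 3 (0.123), mCh- replicate 1 (0.188) or mCh- replicate 2 (0.0821), and with the length trend removed, the replicate block, DESeq2 and other size factors. ZEO1, which encodes a peripheral membrane protein that binds Mid2 and dampens the pathway, fell to 0.504-fold. Its CPM went from 15657 ± 1570 to 7892 ± 468 (SD, n = 3). The kinases Pkh1 and Pkh2 phosphorylate protein kinase C, and the genes PKH1 (0.56) and PKH2 (0.62) both rose. SLM1, whose product binds a membrane phosphoinositide made by Mss4, rose by 0.40. In this list of 11 other sensors and membrane inputs, 5 genes were called higher and 2 lower, beside 29.5% and 28.2% of all tested genes. The list median was 0.05 on the log2 scale. Without TMM factors 7 were called higher and 2 lower, beside 48.2% and 15.6% of all tested genes. WSC3, PKH1, SLM1 and WSC2 were named after their values were seen.

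At the step that switches the GTPase, the exchange factor gene rose and the GTPase gene was not called. ROM2 (YLR371W, chromosome XII, 862714 to 866784), the main exchange factor for Rho1, was at 84.5, 86.8 and 89.5 CPM at 0 min and at 148, 141 and 120 CPM at 180 min. Every 180 min library lay above every 0 min library. The log2 fold change was 0.65 ± 0.09 (SE; adjusted p = 1.20e-05 in edgeR), or 1.57-fold, the largest among the members. RHO1 (YPR165W, chromosome XVI, 875368 to 875997), whose product is also the regulatory subunit of the glucan synthase, was at 435, 408 and 379 CPM and then at 384, 347 and 396 CPM. The groups overlapped, and the fold change of 0.922 had a 95% confidence interval of 0.811 to 1.05. Per kilobase, RHO1 stood at 30.3 ± 2.94 times the level of ROM2 at 0 min and at 17.98 ± 2.86 times at 180 min (SD, n = 3). This ratio was not taken with a trend on gene length removed, under which the log2 values were 0.37 for ROM2 and -0.01 for RHO1.

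The other exchange factor genes moved with ROM2. ROM1, its duplicate, rose from 88.7 ± 7.05 to 169 ± 34.98 CPM (SD, n = 3), a log2 fold change of 0.93 (adjusted p = 1.02e-05 in edgeR). TUS1, an exchange factor that acts on Rho1 in the cell cycle, rose by 0.81 (adjusted p = 1.57e-05 in edgeR). Of 4 listed genes for GTPase-activating proteins, which switch Rho1 off, 3 were called higher. BAG7 rose 1.98-fold (log2 0.98, adjusted p = 5.93e-07 in edgeR), and SAC7 (0.26) and BEM2 (0.29), named after their values were seen, were also called. The SAC7 and BEM2 calls were lost with the length trend removed (0.18 and -0.07) and without mCh- replicate 1, and that of BEM2 also without mCh* replicate 1 or mCh* replicate 2. The GTPase-activating protein gene LRG1 (0.10) and the dissociation inhibitor gene RDI1 (0.08) were not called, except with library sizes only and, for RDI1, with the length trend removed. Of the 8 regulators of Rho1, 5 were called higher and 1 lower (ACK1, -0.24), beside 29.5% and 28.2% of all tested genes. Their median was 0.28. Without TMM factors 7 were called higher and 0 lower, beside 48.2% and 15.6% of all tested genes. The ACK1 call was lost without TMM factors, with the replicate number as a block, and without mCh* replicate 2, mCh- replicate 2 or mCh- replicate 3.

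Along the kinase cascade PKC1 and BCK1 were called higher, MKK1 and MKK2 were not called, and SLT2 was lower. The PKC1 and BCK1 calls were lost with a trend on gene length removed, at 0.09 and -0.07. PKC1 (YBL105C, chromosome II, 14241 to 17696), protein kinase C and the effector that Rho1 activates, was at 195, 210 and 224 CPM at 0 min and at 274, 267 and 248 CPM at 180 min. The groups did not overlap, and the log2 fold change was 0.33 ± 0.08 (SE; adjusted p = 0.00321 in edgeR). BCK1 (YJL095W, chromosome X, 247255 to 251691), the first kinase of the MAP kinase module, was at 62.1, 62.3 and 64.3 CPM and then at 81.5, 75.9 and 63.8 CPM. The mCh- replicate 3 library lay within the range of the 0 min libraries. Its log2 fold change of 0.23 ± 0.09 (SE) had an adjusted p of 0.0449 in edgeR, and the call was lost when any single library other than mCh- replicate 3 was left out, at 0.0582 without mCh* replicate 3 up to 0.201 without mCh- replicate 1. Without mCh- replicate 3 the value was 0.31 (adjusted p = 0.00554 in edgeR).

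MKK1 and MKK2 encode a duplicated pair of MAP kinase kinases that Bck1 phosphorylates. MKK1 (YOR231W, chromosome XV, 772601 to 774127) was at 52.7, 62.2 and 63.8 CPM at 0 min and at 54.6, 59.4 and 52.9 CPM at 180 min, with a log2 fold change of -0.10 ± 0.09 (SE). MKK2 (YPL140C, chromosome XVI, 287514 to 289034) was at 45.1, 45.5 and 43.3 CPM and then at 48.4, 48.2 and 47.2 CPM, with a log2 fold change of 0.10 ± 0.08 (SE). The MKK1 libraries overlapped between times. The MKK2 libraries did not, yet with an adjusted p of 0.284 in edgeR MKK2 was not called. The 95% confidence intervals held MKK1 to between 0.816 and 1.07-fold and MKK2 to between 0.954 and 1.21-fold. MKK2 was called higher with library sizes only (0.36), which is 0.09 above the shift of all genes, and WSC1 likewise (0.31, or 0.04 above the shift).

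SLT2 (YHR030C, chromosome VIII, 168890 to 170344), the MAP kinase that ends the cascade, was at 679, 671 and 629 CPM at 0 min and at 510, 473 and 459 CPM at 180 min. The lowest 0 min library was 119 CPM above the highest 180 min library. The log2 fold change was -0.46 ± 0.08 (SE; adjusted p = 0.000213 in edgeR), or 0.728-fold with a 95% confidence interval of 0.645 to 0.823. Without TMM factors the value was -0.20 (adjusted p = 0.0355 in edgeR), which is -0.47 relative to the shift of all genes. Per kilobase, SLT2 went from 6.65 ± 0.570 to 4.86 ± 0.295 times the summed level of MKK1 and MKK2 (SD, n = 3). Against BCK1 it went from between 29.8 and 33.3 times to between 19.0 and 21.96 times. Both ratios were lower in every 180 min library than in any 0 min library. The share of gene ratios that separate in this way was not computed. The ratios were not taken with the length trend removed, under which SLT2 stood at -0.46 and BCK1 at -0.07 on the log2 scale.

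RLM1 (YPL089C, chromosome XVI, 379120 to 381150) encodes the MADS-box factor that Slt2 activates. It was at 160, 159 and 152 CPM at 0 min and at 152, 147 and 141 CPM at 180 min. The groups were separated by 0.716 CPM, and RLM1 was not called (-0.10 ± 0.07, SE; adjusted p = 0.253 in edgeR). With the length trend removed it was called lower (-0.20, adjusted p = 0.0206 in edgeR).

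**Figure D2:**
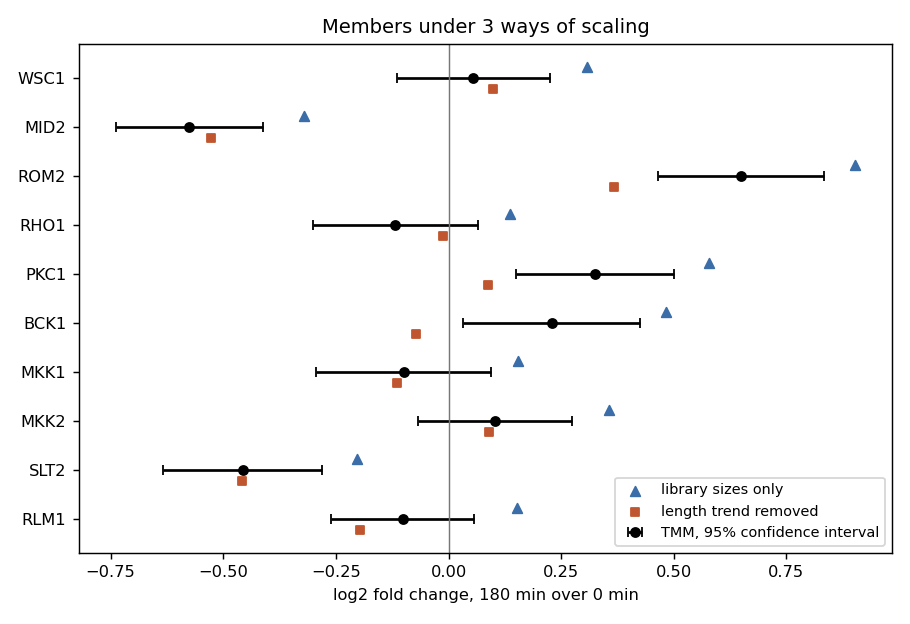
Log2 fold change of each member at 180 min over 0 min (x axis); black points are values with TMM factors and bars their 95% confidence intervals, blue triangles use library sizes only, and orange squares have the trend on gene length removed. MID2 and SLT2 lie below 0 and ROM2 above 0 under all 3, PKC1 and BCK1 move to 0.09 and -0.07 once the length trend is removed, and RHO1, MKK1 and RLM1 cross 0 with library sizes only.

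The called members split by gene length. ROM2, PKC1 and BCK1 span 4071, 3456 and 4437 bases from start to stop codon, whereas the other members span 630 to 2031 bases. Among 492 protein-coding genes over 3000 bases the median log2 fold change was 0.27, with 53.9% called higher and 13.2% lower, and among 2218 genes of at most 1000 bases it was -0.08, with 23.2% higher and 35.1% lower. With a smooth trend on gene span removed from each library, ROM2 stayed higher (0.37, adjusted p = 0.000301 in edgeR), while PKC1 (0.09, adjusted p = 0.288 in edgeR) and BCK1 (-0.07, adjusted p = 0.430 in edgeR) were not called. MID2 (-0.53) and SLT2 (-0.46) were nearly where they had been. In that fit 1 member was called higher and 3 lower, beside 28.9% and 28.7% of all tested genes. Whether length itself accounts for these values was not tested.

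**Figure D3:**
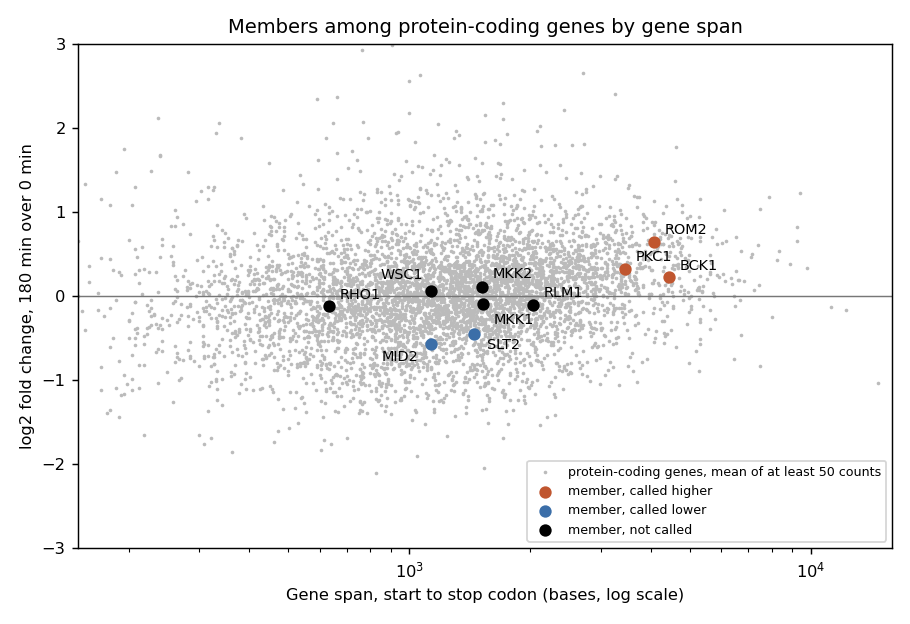
Log2 fold change at 180 min over 0 min (y axis) against gene span in bases (x axis, log scale) for 5509 protein-coding genes whose mean count reached 50 (grey; 5 lie beyond the axis) and the 10 members (large points, coloured by call). ROM2, PKC1 and BCK1 sit at the long end, where the grey cloud also lies above 0.

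The members differed widely in level. Per kilobase at 0 min the order was RHO1 (647 ± 44.1), SLT2 (453 ± 18.4), MID2 (193 ± 10.4), WSC1 (172 ± 6.09), RLM1 (77.4 ± 2.02), PKC1 (60.7 ± 4.13), MKK1 (39.0 ± 3.94), MKK2 (29.3 ± 0.763), ROM2 (21.4 ± 0.613) and BCK1 (14.2 ± 0.279 CPM per kilobase; SD, n = 3). No neighbours in that order overlapped in their 3 libraries. RHO1 and SLT2 lay at percentiles 94.4 and 92.5 among 5701 nuclear coding genes, and BCK1 at 14.8. At 180 min WSC1 stood above MID2, PKC1 overlapped RLM1, and ROM2 overlapped both MKK1 and MKK2. The median coding gene was at 47.8 CPM per kilobase at 0 min and at 48.7 at 180 min.

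Duplicate genes offer a comparison inside each library that does not depend on scaling. In 5 pairs formed by the genome duplication, the log2 ratio of the member's counts to those of its duplicate was compared between times by an exact two-sided permutation test, whose smallest possible p with 3 against 3 libraries is 0.1. The ratios are of counts, not corrected for length, so only their change between times is read. For MID2 over MTL1 the log2 ratios were 0.76, 0.95 and 0.85 at 0 min and -0.02, 0.09 and 0.15 at 180 min. The groups did not overlap, and the change was -0.78, or 0.583-fold (exact p = 0.1, adjusted over 5 pairs 0.25). For ROM2 over ROM1 the log2 ratio went from -0.03 ± 0.08 to -0.30 ± 0.15 (SD, n = 3), again without overlap (exact p = 0.1, adjusted 0.25). The ratio of MKK1 to MKK2 changed by -0.20 with overlapping groups (exact p = 0.2). SLT2 over KDX1, the duplicate that encodes a related kinase, had log2 ratios of 3.02 ± 0.22 and 3.11 ± 0.15 (SD, n = 3; exact p = 0.6). KDX1 itself fell by 0.56 (adjusted p = 0.00165 in edgeR), a call lost without TMM factors. SMP1, the duplicate of RLM1, fell by 0.43 (adjusted p = 0.00915 in edgeR, not called with library sizes only), and the RLM1 to SMP1 ratio changed by 0.33 with overlapping groups (exact p = 0.2). The coding sequences of these pairs shared no identical stretch longer than 20 bases.

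**Figure D4:**
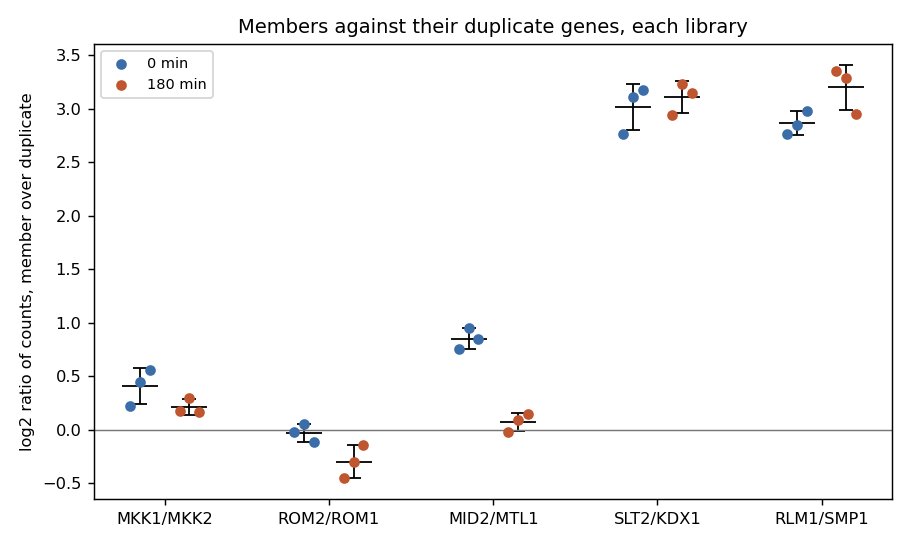
Log2 ratio of a member's counts to those of its duplicate gene (y axis) in each library at 0 min (blue) and 180 min (orange) for 5 pairs; bars are the mean with the SD. MID2 over MTL1 and ROM2 over ROM1 are lower at 180 min in all 3 libraries, and the other pairs overlap between times.

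Upstream DNA was read for a loose form of the Rlm1-type element, because Rlm1, a MADS-box factor, binds elements of this type before wall genes. The search left the 4 bases between CTA and TAG free, so a match need not be bound by Rlm1, and binding was not tested. Within 600 bases before the start codon, the letters CTA and TAG with any 4 bases between them, which read the same on both strands, were found in 3 of 10 members (BCK1, MKK1 and RLM1) and in 10.9% of 5999 nuclear coding genes. The 30 bases around each match follow, read 5′ to 3′ on the strand of the gene, with the match in capitals, from the R64 genome of RefSeq.
BCK1 (chrX:247207-247236, plus strand): gtacgaaacaCTAAATATAGtattaaaata
MKK1, distal (chrXV:772158-772187, plus strand): atgcttttaaCTATTATTAGtttttctcac
MKK1, proximal (chrXV:772236-772265, plus strand): tatgtatgagCTACTGTTAGtatatttatt
RLM1 (chrXVI:381439-381468, minus strand): gagatgaaagCTAATAATAGaaacagctcg
The matches begin 38, 433, 355 and 308 bases before the start codon, in that order, and none lies in an annotated gene. No match in the other members says only that these letters are not in their windows. The SBF-type letters CACGAAA, on either strand, were found in 0 members (8.33% of all genes), and the stress element AGGGG, on either strand, in 5 members (39.7% of all genes): WSC1, ROM2, RHO1, PKC1 and BCK1. BCK1 alone of the members held 2 kinds, and its matches did not overlap.

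Of 18 genes listed as textbook targets of Rlm1, 10 were called lower and 2 higher, beside 28.2% and 29.5% of all tested genes. Their median was -0.29 on the log2 scale, against 0.02 over all tested genes. Without TMM factors 3 were called lower and 5 higher, beside 15.6% and 48.2% of all tested genes. KDX1, GSC2 and FKS1 stand on this list and on another. The wall protein gene PIR1 fell from 533 ± 40.5 to 271 ± 27.6 CPM (SD, n = 3), a log2 fold change of -0.98 (adjusted p = 4.33e-07 in edgeR). PRM5, a membrane protein gene, fell from 420 ± 29.3 to 221 ± 6.73 CPM (SD, n = 3; -0.92, adjusted p = 2.08e-07 in edgeR). HSP150 (-0.46), another wall protein gene of the PIR family, the wall enzyme gene CRH1 (-0.39) and the chitin synthase gene CHS3 (-0.41), named after their values were seen, also fell. CRH1 and CHS3 were not called with library sizes only. GSC2, the alternative catalytic subunit of glucan synthase, rose from 166 ± 9.15 to 271 ± 31.7 CPM (SD, n = 3; 0.70, adjusted p = 9.90e-06 in edgeR). FKS1, the main catalytic subunit, was not called (-0.17), at 1805 ± 35.2 and 1605 ± 137 CPM, and was called lower with the length trend removed (-0.51), in DESeq2 and without mCh- replicate 1. PST1 (0.37), a wall protein gene named after its values were seen, was the other rise.

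The Rlm1-type letters were found in 8 of the 18 target genes. Of these 8, 2 were called higher and 3 lower, and of the 10 without a match, 0 were called higher and 7 lower. The median log2 fold changes were -0.01 and -0.40. This split was made after the values were seen and was not tested. The SBF-type letters were found in 3 of the 18 target genes, GSC2 among them, and in 8.33% of all genes. The Rlm1-type matches of both rises and of HSP150 are shown for comparison with those of the members. The GSC2 match and the proximal HSP150 match hold G or C between CTA and TAG, as does the proximal MKK1 match.
GSC2 (chrVII:547918-547947, plus strand): aactggtgtgCTAAGAATAGagtttcataa
PST1 (chrIV:563212-563241, plus strand): ttacgagtctCTAAAAATAGcgtaggcaca
HSP150, distal (chrX:120216-120245, plus strand): acattttgagCTAAATTTAGattttggtca
HSP150, proximal (chrX:120411-120440, plus strand): tattccttttCTAACCCTAGtacaataata

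Among genes that restrain Slt2, the duplicated phosphatase genes moved in opposite directions. MSG5, a dual-specificity phosphatase of Slt2 and of the pheromone MAP kinases, fell from 55.3 ± 6.23 to 29.0 ± 2.17 CPM (SD, n = 3), a log2 fold change of -0.93 (adjusted p = 1.37e-06 in edgeR). SDP1, a phosphatase selective for Slt2, rose from 8.46 ± 1.48 to 17.7 ± 2.29 CPM (SD, n = 3), a log2 fold change of 1.06 (adjusted p = 4.83e-05 in edgeR). SPA2, a polarity scaffold that binds the Mkk kinases and Slt2, fell by 0.23, and lost the call with library sizes only and without mCh* replicate 1 or mCh- replicate 3. The list of 7 phosphatases and regulators held 1 call higher and 2 lower, with a median of -0.09, and without TMM factors 3 higher and 1 lower. The factor genes SWI4 (0.21) and SWI6 (0.17), whose products form the SBF factor that Slt2 also phosphorylates, and SKN7 (-0.08), a factor that interacts with Rho1, were not called. SWI4 and SWI6 were called higher with library sizes only, SWI4 was also called without mCh- replicate 3, and SKN7 was called lower without mCh- replicate 3. Of these 5 genes, with KDX1 and SMP1, 0 were called higher and 2 lower at a median of -0.08, and with library sizes only 2 higher and 0 lower. Beside both lists, all tested genes gave 29.5% higher and 28.2% lower, and with library sizes only 48.2% and 15.6%.

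Beside glucan synthase genes, the list of Rho1 effectors held formin and exocyst genes. Whether Rho1 acts on each of their products was not tested. The formin genes BNI1 (0.25, adjusted p = 0.0350 in edgeR) and BNR1 (-0.42, adjusted p = 0.00282 in edgeR) moved in opposite directions, and the exocyst gene SEC3 rose by 0.31. The BNI1 and SEC3 calls were lost with the length trend removed (-0.10 and 0.04) and without mCh* replicate 1. That of BNI1 was also lost without mCh* replicate 2, mCh- replicate 1 or mCh- replicate 2, and with the replicate number as a block. BNR1 was not called with library sizes only. With GSC2 and FKS1 these made 3 calls higher and 1 lower among 5 genes, at a median of 0.25, and with library sizes only 3 higher and 0 lower. All tested genes gave 29.5% higher and 28.2% lower, and with library sizes only 48.2% and 15.6%.

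**Figure D5:**
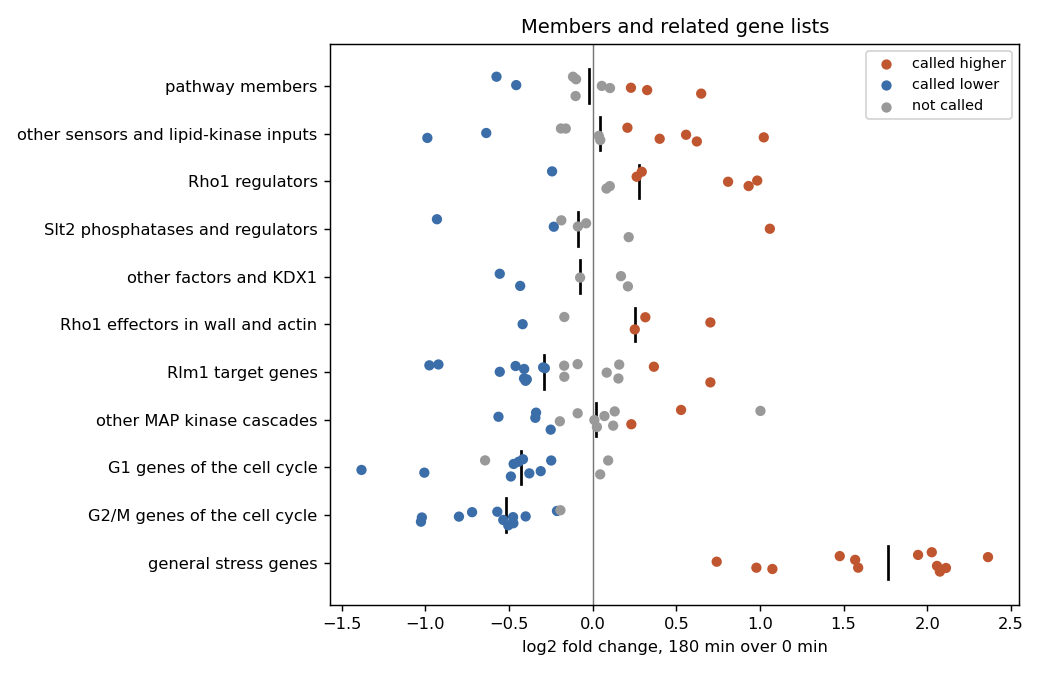
Log2 fold change at 180 min over 0 min (x axis) of the genes in each list (rows), coloured by call; black bars are list medians, and vertical scatter within a row has no meaning. The members spread around 0, as do the other sensors and MAP kinases, while Rlm1 targets and cell cycle genes lie mainly below 0 and stress genes above it.

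Other programmes moved in the same libraries. Of 12 genes of G2/M, when the late cell cycle genes are transcribed, 11 were called lower and 0 higher (median -0.52), among them the mitotic cyclin gene CLB2 (-1.03), and of 12 G1 genes 9 were called lower and 0 higher (median -0.43), among them GIC2 (-1.38). The next by adjusted p were KIN3 (-1.02) and CDC20 (-0.80) for G2/M, and PCL1 (-1.01) and CLN3 (-0.47) for G1. Over all tested genes 28.2% were called lower and 29.5% higher. Without TMM factors the counts were 8 lower and 0 higher for G2/M, and 3 lower and 2 higher for G1. All tested genes then gave 15.6% lower and 48.2% higher. All 12 general stress genes were called higher (median 1.77), and those with the smallest adjusted p were TFS1 (2.36), SOL4 (2.08) and HSP26 (2.06). In bulk RNA, a change in the share of cells at a stage and a change of RNA per cell cannot be told apart. The part of either programme in the members' values was not tested.

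The genes closest to SLT2 in profile over the 6 libraries were FRQ1, CHS3, KTR5, TEM1 and DXO1, by the root mean square distance between log2 CPM values centred on each gene's mean. Their distances were 0.03 to 0.04, and 232 of 5734 genes compared lay within 0.1. CHS3, of the chitin synthase, is also on the list of Rlm1 targets.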

How the data were processed

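PolyA RNA was sequenced from 6 libraries, grouped by sample title. The authors deposited whole-number read counts per gene, not normalized, for 7127 identifiers. The submitters' processing notes name HTSeq 0.6.1p1, STAR 2.5.3a, cutadapt 1.10, bcl2fastq 2.20.0.422 and the builds R64 and sacCer3. The strand setting is not given in the sources used here, so reads of overlapping genes cannot be assigned for certain. Each group held 3 libraries from independent experiments, so p-values rest on the spread among those.

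Names and positions came from the RefSeq R64 table (6047 identifiers matched by locus tag, 41 by symbol). Counts were tested with edgeR 4.0.16 (R 4.3.3), TMM factors and its default filter, which left 6220 genes. Standard errors came from the same fit. Gene span is start to stop codon. CPM were computed here. Alternatives used other scalings, filters, DESeq2 1.42.0, limma-voom (limma 3.58.1), a replicate block, a loess trend on span, and each library left out.

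The edgeR step was tested on simulated data with known changes, in 50 of 6220 genes at each size. It recovered 12% of 1.2-fold, 84% of 1.5-fold, 92% of 2-fold and 96% of 4-fold changes, with 6 false calls among 148. Small changes like those of most uncalled members were thus mostly missed there. In the data 57.7% of genes were called, so recovery may differ.

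The members and lists were chosen with earlier results of these data known. Named are all members, both genes of each duplicate pair, the called genes with the 3 smallest adjusted p in each list, all genes of lists of 5, and the 5 profiles nearest SLT2; other names were chosen after their values were seen. Figures used matplotlib 3.10.9.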

Additional observations from a re-analysis of the deposited data

How the results depend on the processing

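MID2, SLT2 and ROM2 kept their direction and their call in all 15 refits (other scalings, filters, tests, the block and each library left out). PKC1 was lost with the length trend removed (0.087). BCK1 was lost with median-ratio size factors (0.21), TMM without ribosomal protein genes (0.21), DESeq2 (0.21), limma-voom (0.22), the replicate block (0.22) and an adjusted p below 0.01 (0.23), and was reversed with the length trend removed (-0.072). With library sizes only RHO1 (0.14), MKK1 (0.15) and RLM1 (0.15) changed sign without a call, and WSC1 (0.31) and MKK2 (0.36) were called. RLM1 (-0.20) was called with the length trend removed. The causes were not tested. With library sizes only the median of all genes was 0.27, and this shift was subtracted from member values but not tested as a cause.

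Leaving out single libraries gave 0.15 to 0.31 for BCK1 and -0.012 to 0.084 for WSC1, -0.180 to -0.048 for MKK1 and -0.167 to -0.067 for RHO1. Changes of log2 ratios ranged from -0.031 to 0.18 for SLT2 to KDX1 and from -0.292 to -0.125 for MKK1 to MKK2. Counts then ranged from 3 to 5 higher and 0 to 1 lower for Rho1 regulators, from 1 to 3 higher and 1 to 2 lower for Rho1 effectors, from 1 to 2 higher for phosphatases, from 1 to 2 higher for other MAP kinase cascades, and from 0 to 1 higher for the other factors.

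With library sizes only, calls over all genes were 2996 higher and 969 lower, in place of 1833 and 1754. Members gave 5 higher, Rho1 regulators 0 lower, phosphatases 3 higher and 1 lower, the other factors 2 higher and 0 lower, Rho1 effectors 0 lower, Rlm1 targets 5 higher and 3 lower, other MAP kinase cascades 6 higher and 1 lower, and G1 genes 2 higher and 3 lower. With the length trend removed, members gave 1 higher, other sensors and inputs 5 lower, Rho1 effectors 1 higher and 2 lower, Rlm1 targets 5 higher and other MAP kinase cascades 1 higher. An adjusted p below 0.01 gave 3 higher and 0 lower for Rho1 regulators, 1 lower for phosphatases and 1 higher for other MAP kinase cascades. No filter gave 2 higher for phosphatases, and DESeq2 gave 2 lower for Rho1 effectors.

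With the replicate block, 1727 genes were higher and 1663 lower, Rho1 regulators had 0 lower, phosphatases 2 higher, and BCK1 had an adjusted p of 0.0718 in edgeR. Deviations from the group means of same-numbered libraries had correlations of -0.00151, 0.00524 and -0.285 over 5735 genes. Differently numbered libraries had correlations of -0.185 to 0.18. With 3 libraries per group these values cannot settle whether the numbers mark pairs, and the main fit used no pairing. Depth was not varied: BCK1 had 1595 to 2816 counts per library, and its SD among the 180 min libraries was 9.06 CPM on a mean of 73.7.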

Other observations

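Genes of other MAP kinase cascades were called in both directions. The list held 14 genes of the pheromone, osmolarity and filamentation cascades, the sporulation kinase gene SMK1 included. Of these, 2 were called higher and 4 lower at a median of 0.02, beside 29.5% and 28.2% of all tested genes. Without TMM factors 6 were called higher and 1 lower, beside 48.2% and 15.6% of all tested genes. FUS3, the pheromone MAP kinase, fell by 0.56 and STE20, the kinase at the top of the pheromone cascade, by 0.34 (not called with library sizes only). SSK2, a kinase of the osmolarity cascade, rose by 0.53. HOG1, the MAP kinase of that cascade, was at 261 ± 1.08 and 285 ± 15.1 CPM (SD, n = 3) and missed the call unless TMM factors were left out. Of 6 listed MATa genes, 4 were called lower and 0 higher, beside 28.2% and 29.5% of all tested genes. The pheromone precursor genes MFA1 (-1.55) and MFA2 (-0.95), their exporter gene STE6 (-0.45) and STE2 (-0.30) fell. STE6 and STE2 lost their calls without TMM factors, and STE2 also without mCh* replicate 2 or mCh- replicate 2. BAR1 (-0.06) and AGA2 (0.06) were not called. AGA2 was called higher with library sizes only (0.31) and with the length trend removed (0.23).

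Of the 5 called members, 3 had a called gene upstream. Over all tested genes 57.7% were called, so this share lay near the background. ARC18 rose by 0.41 beside ROM2 and SEA4 by 0.33 beside PKC1, both of which also rose, while CHS5 rose by 0.31 beside MID2, which fell. Beside members that were not called, WTM1 rose by 1.25 (MKK1), MMS1 rose by 0.70 (RHO1) and YPL088W fell by 0.57 (RLM1).

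The mCh- replicate 3 library lay nearest to the 0 min libraries among the 180 min libraries for ROM2, PKC1 and BCK1, with 120, 248 and 63.8 CPM. It was not so for MID2 and SLT2, where it was farthest, at 144 and 459 CPM.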
